A study of Zea mays with 12 samples.

Results

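Zeins, the storage proteins of the maize kernel, are switched on by a small set of transcription factors. The genes of 3 of them are described here in reciprocal crosses of maize (Zea mays): o2 (opaque2, GRMZM2G015534), pbf1 (prolamin-box binding factor, GRMZM2G146283) and ohp1 (opaque2 heterodimerizing protein, GRMZM2G016150). They were taken by identifier, not by their values, and are 3 of the 108342 gene models counted. No other model carried the same counts as any of the 3 in every library. The zein genes gz27 (GRMZM2G138727) and fl2 (GRMZM2G397687) served to place their timing. Each of these zein models had counts identical to those of 1 other model, so its reads cannot be assigned to a single gene.

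As background, o2 and ohp1 encode bZIP proteins that can pair with each other, and pbf1 encodes a Dof zinc finger protein. Opaque2 is best known as an activator of alpha-zein genes of the z1C family, to which fl2 (floury2) belongs, and of genes of starch and amino acid metabolism. PBF1 binds the prolamin box shared by many zein promoters and can act together with Opaque2, and the OHP proteins and PBF1 are known as activators of the gamma-zein gene gz27. Zeins are made in the starchy endosperm, the inner storage tissue of the kernel.

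RNA was sequenced from 2 reciprocal crosses of the inbred lines B73 and Mo17 at 6 ages. BxM is B73 pollinated by Mo17 and MxB is Mo17 pollinated by B73, with the mother written first. Whole kernels were harvested unpollinated (0 days after pollination, DAP) and at 3 and 5 DAP. Endosperm was harvested at 7, 10 and 15 DAP. Unpollinated kernels hold only the mother's tissue, and kernels at 3 and 5 DAP hold the ovule tissues of the mother beside the young seed. The protocol speaks of several groups of plant material per sample, but every cross had 1 column of counts at each age, 12 in all, so the 2 crosses are the only repeats at an age.

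Total counts were 59378582 to 70930121 per library at 0 to 10 DAP and 35401314 (BxM) and 39864984 (MxB) at 15 DAP. Levels are CPM (counts scaled to a common library total) with TMM (trimmed mean of M-values) factors. They are not divided by gene length, so values of different genes set side by side or summed are counts of reads and give no ratio of transcripts. Intervals in parentheses are 95% intervals and cover counting error only. For a count of 0 a floor of 3 counts was used, or 0.0304 to 0.143 CPM over the libraries. This floor lies below the upper end of the exact 95% interval of a count of 0. The 3 ovule MADS-box genes zag1, zag2 and zmm2 summed to 515 to 1040 CPM in kernels, 10.6 (BxM) and 8.35 (MxB) CPM at 7 DAP, 135 and 179 CPM at 10 DAP and 1.58 and 2.07 CPM at 15 DAP, so the 10 DAP endosperm held more RNA of these markers than that of 7 DAP, in both crosses. A further 21 models with high counts at 10 DAP, gz27 among them, had zeros at 15 DAP. Neither fl2 nor any of the 3 activators is one of these, and no change to 15 DAP is given for them.

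The o2 gene was barely detected in kernels and rose at each sampled endosperm age. Its counts in BxM were 1, 4 and 0 at 0, 3 and 5 DAP, then 67 at 7 DAP, 6857 at 10 DAP and 17437 at 15 DAP. In MxB they were 2, 1 and 7 in kernels, then 204, 3386 and 14831. As levels, o2 stood at 1.01, 141 and 834 CPM at 7, 10 and 15 DAP in BxM and at 3.06, 55.6 and 538 CPM in MxB. Both libraries of each endosperm age lay above both libraries of the age before, and the kernel libraries, all at 0.0925 CPM or less, could not be ordered by age. In bulk tissue, fewer cells of a type and less RNA per cell cannot be told apart.

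**Figure D1:**
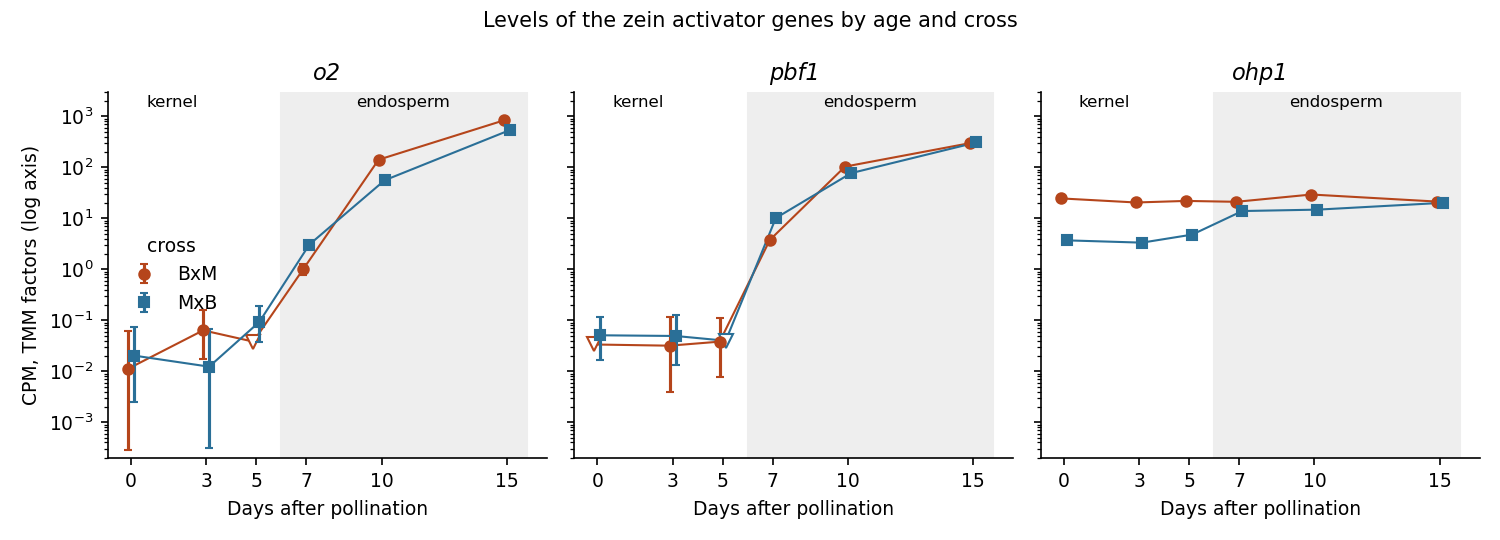
Level of o2, pbf1 and ohp1 (CPM with TMM factors, log axis) against days after pollination in BxM (circles) and MxB (squares), 1 library per point, with exact 95% Poisson intervals. Open triangles mark 3 counts, the floor used for a count of 0, and the grey area marks endosperm. The o2 and pbf1 genes stay under 0.1 CPM in kernels and reach 834 and 538 CPM (o2) and 299 and 307 CPM (pbf1) at 15 DAP, while ohp1 stays between 3.33 and 29.3 CPM throughout.

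The pbf1 gene followed a like course and was closer to its 10 DAP level at 7 DAP. Its counts in BxM were 0, 2 and 3 in kernels, then 248, 5017 and 6250 at 7, 10 and 15 DAP. In MxB they were 5, 4 and 0 in kernels, then 674, 4675 and 8469. The levels were 3.76, 103 and 299 CPM at 7, 10 and 15 DAP in BxM and 10.1, 76.7 and 307 CPM in MxB. As for o2, the kernel libraries showed only traces, at most 0.0507 CPM, and the endosperm ages did not overlap.

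Both genes passed the test at the step from kernel to endosperm. The log2 fold change of 7 over 5 DAP was 5.43 for o2 (SE 1.04, adjusted p = 0.00609) and 8.26 for pbf1 (SE 0.952, adjusted p = 0.000755). These fitted values rest on kernel counts near 0. They stayed past the threshold without any single library, at 4.07 to 10.24 for o2 (highest without MxB of 5 DAP) and 7.10 to 11.94 for pbf1 (highest without BxM of 5 DAP), where the lone 5 DAP library left had a count of 0. Within a cross, o2 at 7 DAP was 26.7-fold above the floor of 3 counts of the 5 DAP library in BxM, and 33.1-fold higher than at 5 DAP in MxB. For pbf1 the ratio was 98.7 (33.4 to 482) in BxM, and the level at 7 DAP in MxB was 255-fold above the same floor of 3 counts. At this step 24.8% of the 46342 models tested passed in either direction and 10% passed as higher and 14.8% as lower, and age and tissue changed together. Neither o2 nor pbf1 had passed at 3 over 0 DAP or 5 over 3 DAP, where edgeR called 0 of the 3 activators, DESeq2 called 0, and 0 had an unadjusted p under 0.05. Of all models, 0.548% passed at 3 over 0 DAP and 0.0129% at 5 over 3 DAP.

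Both genes rose again from 7 to 10 DAP. At 10 over 7 DAP the log2 fold change was 5.57 for o2 (SE 0.900, adjusted p = 0.0165) and 3.81 for pbf1 (SE 0.659, adjusted p = 0.0210), where 3.79% of models passed in either direction and 2.83% as higher and 0.962% as lower. In BxM o2 was 139-fold and pbf1 27.5-fold higher at 10 DAP than at 7 DAP, and in MxB the ratios were 18.2 and 7.59. Starchy endosperm markers (sh2, bt2, wx1 and ae1, all detected in every library) moved with them, with a sum of 4411 CPM (BxM) and 3873 CPM (MxB) at 10 DAP against 192 and 547 CPM at 7 DAP. Of these, sh2, bt2 and wx1 are also reported as bound or regulated by Opaque2, so they are no separate reading of cell type. At 7 over 5 DAP wx1 (-0.61, adjusted p = 0.686) and bt2 (-0.39, adjusted p = 0.734) had not risen. Most calls at this step were lost without a library of 7 or 10 DAP. For o2 the value was 4.60 without the BxM library of 7 DAP (adjusted p = 0.127), 6.78 without MxB of 7 DAP (0.0512) and 4.61 without BxM of 10 DAP (0.0508), and the call stood without MxB of 10 DAP. For pbf1 it was 3.13 without BxM of 7 DAP (adjusted p = 0.183), 4.59 without MxB of 7 DAP (0.0661), 3.24 without BxM of 10 DAP (0.0965) and 4.36 without MxB of 10 DAP (0.0586).

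From 10 to 15 DAP o2 rose again and pbf1 did not pass the test. The summed starchy endosperm markers were at 35606 CPM (BxM) and 35241 CPM (MxB) at 15 DAP, against 4411 and 3873 CPM at 10 DAP. The transfer layer markers mrp1, betl1, bap2, meg1 and mn1 summed to 2.20 (3 of 5 above 0) and 5.88 CPM at 15 DAP, against 1963 and 3168 CPM at 10 DAP, and the aleurone markers GRMZM2G091054, vpp1 and nkd1 to 423 and 486 CPM, against 4352 and 3563 CPM. In these lists mrp1 and nkd1 did not pass at this step, with log2 fold changes of -0.42 (adjusted p = 0.748) and -0.34 (adjusted p = 0.528), and the others fell. The part of these markers in the change was not tested. The log2 fold change of 15 over 10 DAP was 2.81 for o2 (SE 0.763, adjusted p = 0.0352), with 5.91-fold higher levels in BxM and 9.68-fold in MxB. For pbf1 it was 1.72 (SE 0.591, adjusted p = 0.0801), with ratios of 2.90 in BxM and 4.00 in MxB. At this step 17.7% of the 46377 models tested passed in either direction, 3.73% as higher and 14% as lower, and the median of all models was -0.37. With upper-quartile factors the split was 2642 models higher and 4793 lower, in place of 1729 and 6479, and with DESeq2 it was 4317 and 7252. For pbf1 the value passed at 2.05 (adjusted p = 0.0494) with upper-quartile factors, at 2.00 (0.00577) with DESeq2, at 1.93 (0.0123) in the endosperm libraries alone, and at 1.89 (0.0461) without the MxB library of 0 DAP. For o2 it missed the threshold without BxM of 10 DAP (3.95, adjusted p = 0.0534), MxB of 10 DAP (2.09, 0.234), BxM of 15 DAP (2.27, 0.251) and MxB of 15 DAP (3.14, 0.0686). Over the whole endosperm series, 15 over 7 DAP, the log2 fold change was 8.38 for o2 (SE 0.993, adjusted p = 0.000644) and 5.53 for pbf1 (SE 0.702, adjusted p = 0.000869), against 8.73% of models called higher. Without any single library these last values stayed past the threshold, at 7.46 to 9.65 for o2 and 4.87 to 6.34 for pbf1.

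The balance of the 2 genes shifted towards o2 with age. In counts of the same library, which need no scaling between libraries, o2 had 0.270 (0.203 to 0.355) counts per count of pbf1 in BxM and 0.303 (0.258 to 0.355) in MxB at 7 DAP. At 10 DAP the ratio was 1.37 in BxM and 0.724 in MxB, and at 15 DAP it was 2.79 and 1.75. The ratio was higher at each later age in both crosses, and the crosses differed beyond counting error at 10 and 15 DAP but not at 7 DAP. These ratios were not tested; a permutation test of 2 libraries against 2 cannot give a two-sided p below 0.333.

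**Figure D2:**
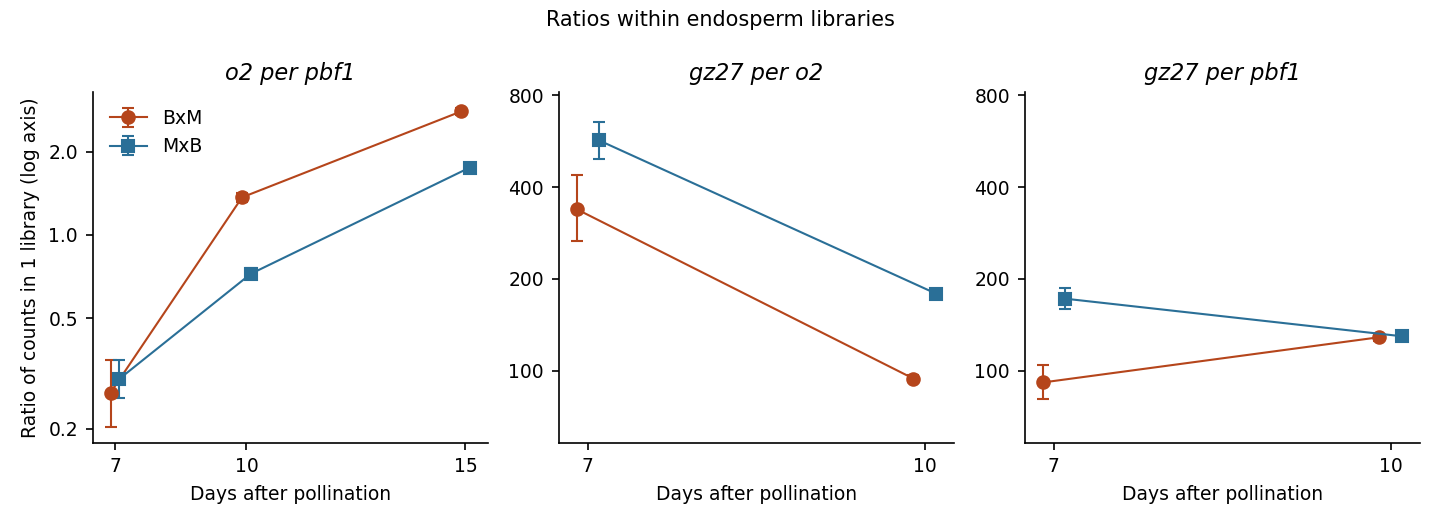
Ratios of counts within endosperm libraries (log axes) against days after pollination in BxM (circles) and MxB (squares), 1 library per point, with exact 95% intervals. The ratio of o2 to pbf1 is near 0.3 in both crosses at 7 DAP and 2.79 (BxM) and 1.75 (MxB) at 15 DAP, while gz27 per o2 is lower at 10 DAP than at 7 DAP in both crosses and gz27 per pbf1 is 129 (BxM) and 130 (MxB) at 10 DAP.

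The 2 crosses led at different ages. At 7 DAP both activators were lower in BxM than in MxB, with a ratio of 0.332 (0.248 to 0.439) for o2 and 0.372 (0.320 to 0.430) for pbf1. At 10 DAP both were higher in BxM, with ratios of 2.54 (2.43 to 2.64) for o2 and 1.34 (1.29 to 1.40) for pbf1. At 15 DAP the ratio was 1.55 (1.52 to 1.58) for o2 and 0.972 (0.941 to 1.00) for pbf1. With 1 library per cross and age these ratios compare libraries, and the turn between 7 and 10 DAP was not tested.

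Cell type markers moved with the difference at 7 DAP. The starchy endosperm markers, of which sh2, bt2 and wx1 are also reported as bound or regulated by Opaque2, summed to 192 CPM in BxM and 547 CPM in MxB. At that age the 5 transfer layer markers (mrp1, betl1, bap2, meg1 and mn1, all detected in both libraries) summed to 10201 and 3658 CPM. The aleurone markers (GRMZM2G091054, vpp1 and nkd1) summed to 3310 CPM in BxM and 3004 CPM in MxB, with GRMZM2G091054 at 2891 CPM in BxM and 2414 CPM in MxB, vpp1 at 230 and 292 CPM and nkd1 at 189 and 297 CPM, so vpp1 and nkd1 went the other way from the sum. The embryo list (ole1, ole17, lec1 and vp1) summed to 33.7 CPM in BxM and 66.3 CPM in MxB at 7 DAP and to 401 and 202 CPM at 10 DAP. Most of the sum at 7 DAP was ole1, at 21.4 CPM in BxM and 53.6 CPM in MxB. At that age vp1 went the other way from the sum, at 10.9 and 9.87 CPM. The part of these cell type markers in the activators' levels was not tested.

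Over the ages together, neither gene differed between the crosses past the threshold. Across the 6 endosperm libraries the log2 fold change of BxM over MxB was 0.26 for o2 (SE 0.505, adjusted p = 0.900) and -0.30 for pbf1 (SE 0.346, adjusted p = 0.809), where 0.0489% of 38892 models passed. Over all 12 libraries it was 0.04 for o2 (SE 0.608, adjusted p = 0.983) and -0.37 for pbf1 (SE 0.447, adjusted p = 0.708), where 0.0173% passed. In these comparisons edgeR called 0 of the 3 activators, 1 (ohp1) had an unadjusted p under 0.05 in each, and DESeq2 called 1 (ohp1) over 12 libraries and 0 in endosperm. Over 12 libraries 9646 of 46342 models had an unadjusted p under 0.05 and DESeq2 called 7363. In endosperm 4211 of 38892 had an unadjusted p under 0.05 and DESeq2 called 1079. The o2 value in endosperm moved with the libraries left out. It was 1.03 without BxM of 7 DAP (adjusted p = 0.00354) and 1.03 without MxB of 7 DAP (adjusted p = 0.00488). The age term takes up the lone library left at 7 DAP, so these values rest on the later ages and are not separate checks. Many more models passed there, at 1348 of 41142 without BxM and 1343 of 41294 without MxB. With all 6 endosperm libraries 19 of 38892 passed. The o2 value was below 0 without any of the other 4 endosperm libraries, between -0.40 and -0.02.

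Against the zein genes, pbf1 and gz27 stood closer to their own 10 DAP levels at 7 DAP than o2 and fl2 did. At 7 DAP in BxM, pbf1 stood at 3.64% and gz27 at 2.59% of the 10 DAP level, while o2 stood at 0.720% and fl2 at 0.437%. At 7 DAP in MxB, the shares were 13.2% for pbf1, 17.5% for gz27, 5.50% for o2 and 7.00% for fl2. The first sampled age at or above 10% of the 10 DAP level was 7 DAP for pbf1 and gz27 in MxB and 10 DAP for both in BxM. For o2 and fl2 it was 10 DAP in both crosses. In kernels fl2 stood at 1.45% and 2.20% of its 10 DAP level at 0 and 3 DAP in BxM and at 2.91% and 2.96% at 3 and 5 DAP in MxB. The o2 gene was at 0.166% or less of its own 10 DAP level in every kernel library. This contrast depends on the 10 DAP base, since from 10 to 15 DAP fl2 was 371-fold (BxM) and 301-fold (MxB) higher. Over the same step o2 was 5.91-fold and 9.68-fold higher. These shares are a description with 1 library per point, and no order of the genes was tested.

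**Figure D3:**
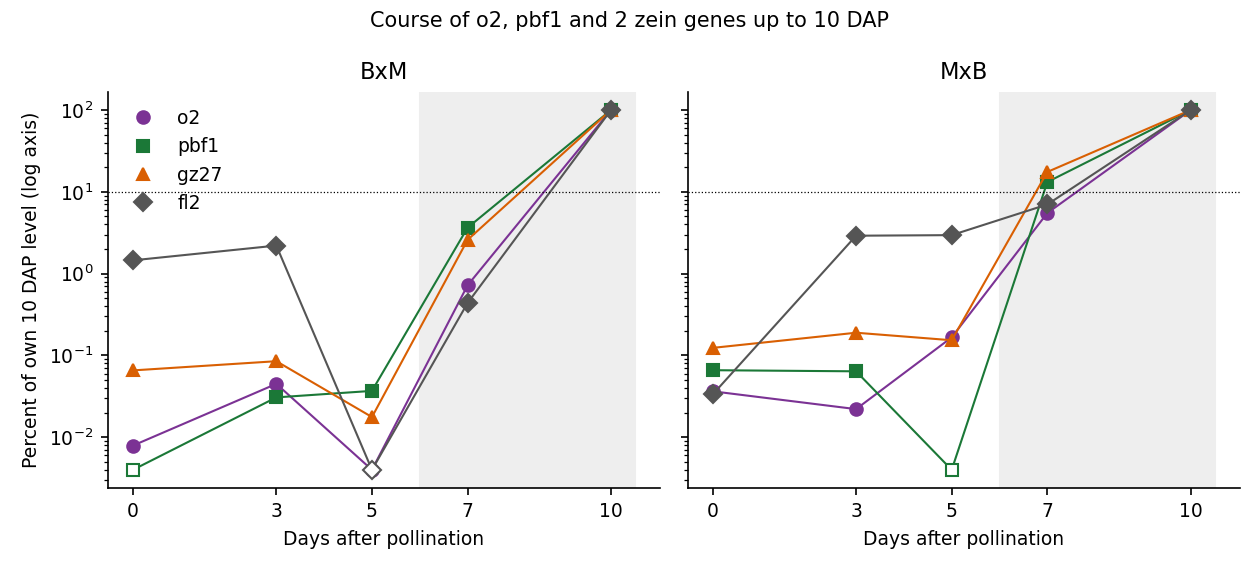
Level of o2, pbf1, gz27 and fl2 as percent of each gene's own 10 DAP level (log axis) against days after pollination up to 10 DAP, in BxM (left) and MxB (right); open symbols at the bottom mark a count of 0 (o2 and fl2 overlap there at 5 DAP in BxM), the dotted line marks 10% and the grey area endosperm. At 7 DAP pbf1 and gz27 lie above o2 and fl2 in both crosses, and every gene is closer to its 10 DAP level in MxB than in BxM.

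The gz27 gene, whose product forms the outer layer of young zein bodies, rose at 7 over 5 and 10 over 7 DAP, as o2 and pbf1 did. Its levels at 0, 3, 5, 7 and 10 DAP were 8.72, 11.3, 2.35, 344 and 13280 CPM in BxM and 12.3, 18.9, 15.3, 1741 and 9954 CPM in MxB. The log2 fold change of gz27 was 6.93 at 7 over 5 DAP (SE 0.918, adjusted p = 0.00178) and 3.98 at 10 over 7 DAP (SE 0.817, adjusted p = 0.0422). The second call was lost with age as the only term (3.48, adjusted p = 0.123) and without any of 7 single libraries (adjusted p = 0.0536 to 0.277, values 2.85 to 4.83). Those libraries were BxM and MxB of 0 DAP, BxM of 3 DAP and both crosses of 7 and 10 DAP.

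The fl2 gene was highest at 15 DAP in both crosses. Its levels at 0, 3, 5, 7, 10 and 15 DAP were 1.86, 2.82, 0, 0.560, 128 and 47465 CPM in BxM and 0.0203, 1.77, 1.80, 4.26, 60.8 and 18283 CPM in MxB. The log2 fold change of fl2 was 1.41 at 7 over 5 DAP (adjusted p = 0.620), 5.16 at 10 over 7 DAP (SE 2.07, adjusted p = 0.228) and 8.43 at 15 over 10 DAP (SE 2.29, adjusted p = 0.0353). In the endosperm libraries alone the value of fl2 at 10 over 7 DAP passed, at 5.21 (adjusted p = 0.0232). The call at 15 over 10 DAP was lost without any 1 of the 4 libraries of 10 and 15 DAP, with values of 7.48 to 9.12. At 15 DAP fl2 was 371-fold (BxM) and 301-fold (MxB) higher than at 10 DAP, while o2 was 5.91-fold and 9.68-fold higher. The alpha-zein model z1C1_4 was at 362 CPM (BxM) and 153 CPM (MxB) at 10 DAP and at 0 in both crosses at 15 DAP. How reads were divided among zein models at 15 DAP was not tested, so the rise of fl2 at that step is uncertain in size.

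Set against the activators within a library, gz27 grew less than o2 between 7 and 10 DAP in both crosses. In BxM there were 94.2 counts of gz27 per count of o2 at 10 DAP, against 339 at 7 DAP, and in MxB there were 179 at 10 DAP, against 569 at 7 DAP. Per count of pbf1, gz27 had 129 counts at 10 DAP against 91.5 at 7 DAP in BxM, and 130 at 10 DAP against 172 at 7 DAP in MxB. The ratio to pbf1 thus moved in opposite directions in the crosses. Per count of o2, fl2 had 0.909 counts at 10 DAP against 0.552 at 7 DAP in BxM, and 1.09 at 10 DAP against 1.39 at 7 DAP in MxB.

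The cross that led at 7 DAP was MxB for the zein genes too. The ratio of BxM to MxB at 7 DAP was 0.197 (0.195 to 0.200) for gz27 and 0.132 (0.0908 to 0.186) for fl2, both below those of o2 and pbf1. At 10 DAP the ratio was 1.33 for gz27, close to the 1.34 of pbf1, and 2.11 (2.02 to 2.19) for fl2 beside the 2.54 of o2. The summed starchy endosperm markers differed in the same direction at both ages, but at 10 DAP sh2, one of the 4, stood at 2074 CPM in BxM and 2112 CPM in MxB.

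Unlike o2 and pbf1, ohp1 was present at every age and did not pass the test at any step. Its counts at 0, 3, 5, 7, 10 and 15 DAP were 2202, 1288, 1727, 1390, 1423 and 445 in BxM and 364, 271, 362, 925, 900 and 554 in MxB. As levels these were 24.6, 20.4, 21.9, 21.1, 29.3 and 21.3 CPM in BxM and 3.69, 3.33, 4.78, 13.9, 14.8 and 20.1 CPM in MxB. With the ages ordered by their mean, no age had both its libraries above both libraries of the age next below it. The log2 fold change was 0.77 at 7 over 5 DAP (SE 0.648, adjusted p = 0.435), 0.23 at 10 over 7 DAP (SE 0.637, adjusted p = 0.917) and 0.14 at 15 over 10 DAP (SE 0.639, adjusted p = 0.947). The last value turned to -0.091 with age as the only term and to -0.43 with ohp1 and ohp2 summed.

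The level of ohp1 differed between the crosses. Kernels of 0 DAP were unpollinated, so at that age the comparison is of the mother lines B73 and Mo17. In kernels it was higher in BxM than in MxB, with ratios of 6.65 (5.95 to 7.45) at 0 DAP, 6.13 (5.38 to 7.02) at 3 DAP and 4.58 (4.09 to 5.14) at 5 DAP. In endosperm the ratio was 1.52 (1.40 to 1.65) at 7 DAP, 1.98 (1.82 to 2.15) at 10 DAP and 1.06 (0.932 to 1.20) at 15 DAP. The interval of the ratio held 1 at 15 DAP only. Over all 12 libraries the log2 fold change of BxM over MxB was 1.54 (SE 0.396, adjusted p = 0.117), and it passed with DESeq2 at 1.54 (adjusted p = 0.00185). In the 6 endosperm libraries it was 0.57 (SE 0.239, adjusted p = 0.447). A fit chosen after these values were seen, with separate cross terms for kernel and endosperm, gave 2.51 in kernels (SE 0.277, adjusted p = 0.000573), where 13.6% of models passed in either direction and 6.87% as higher. The kernel value exceeded that in endosperm by 1.96 (SE 0.375, adjusted p = 0.0223), where 3.84% of models passed in either direction and 2.02% as higher. That difference missed the threshold without either library of 0 DAP (1.79, adjusted p = 0.116 to 0.122), of 7 DAP (1.98, 0.0786 to 0.0789) or of 15 DAP (1.72, 0.0747 to 0.0751). Unpollinated kernels are of the mother's line alone, while endosperm of either cross holds alleles of both lines. Tissue and parental make-up thus change together in this comparison and cannot be told apart. The larger difference in kernels was not particular to ohp1. Of the 13 Opaque2-linked genes described below, 2 passed as higher and 0 as lower in both comparisons. They were ppdk1, at 3.06 in kernels (adjusted p = 0.00110) and 2.52 for kernel minus endosperm (0.0282), and sus2, at 2.75 (0.000705) and 2.17 (0.0246).

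Its near relative ohp2 (GRMZM2G007063), which encodes another bZIP partner of Opaque2, differed the other way. The ohp2 levels at 0, 3, 5, 7, 10 and 15 DAP were 20.6, 16.0, 17.0, 17.1, 22.4 and 14.2 CPM in BxM and 30.7, 26.8, 24.1, 19.1, 32.6 and 17.6 CPM in MxB. BxM was below MxB at each age, and the log2 fold change was -0.47 over 12 libraries (SE 0.141, adjusted p = 0.135) and -0.61 in kernels (SE 0.215, adjusted p = 0.0997). Both values of ohp2 passed with DESeq2, at -0.47 (adjusted p = 0.00777) and -0.63 (adjusted p = 0.00665). Of the counts of both genes, ohp1 held 54.3%, 56.1%, 56.3%, 55.2%, 56.6% and 60.0% in BxM over the 6 ages. In MxB it held 10.7%, 11.03% and 16.5% in kernels and 42.0%, 31.2% and 53.3% at 7, 10 and 15 DAP. The exact 95% intervals of the 2 crosses did not overlap at any age. They came closest at 15 DAP, where they ran from 56.35% to 63.52% in BxM and from 50.18% to 56.34% in MxB.

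With the counts of ohp1 and ohp2 summed, the ratio between the crosses was closer to 1 at 0 to 10 DAP than for ohp1 alone. Adding the ohp2 counts, whose levels were lower in BxM, lowers the ratio in itself, so the sum is a description and not a test. The sum stood at 45.2, 36.4, 38.9, 38.1, 51.7 and 35.5 CPM in BxM and at 34.4, 30.2, 28.9, 33.0, 47.4 and 37.7 CPM in MxB at the 6 ages. BxM over MxB was between 0.940 and 1.35. A difference remained: the interval of the ratio lay above 1 at each age from 0 DAP (1.25 to 1.38) to 10 DAP (1.03 to 1.15). It held 1 at 15 DAP only (0.854 to 1.03). In kernels the log2 fold change of the sum was 0.36 (adjusted p = 0.279), against 2.51 for ohp1 alone, and kernel minus endosperm was 0.28 (adjusted p = 0.765), against 1.96. The sum was highest at 10 DAP in both crosses, and the other ages overlapped. Reads of such near relatives may be divided between their models by the mapping, and the count columns name B73 in their headers, so how well reads of Mo17 alleles were counted was not tested.

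**Figure D4:**
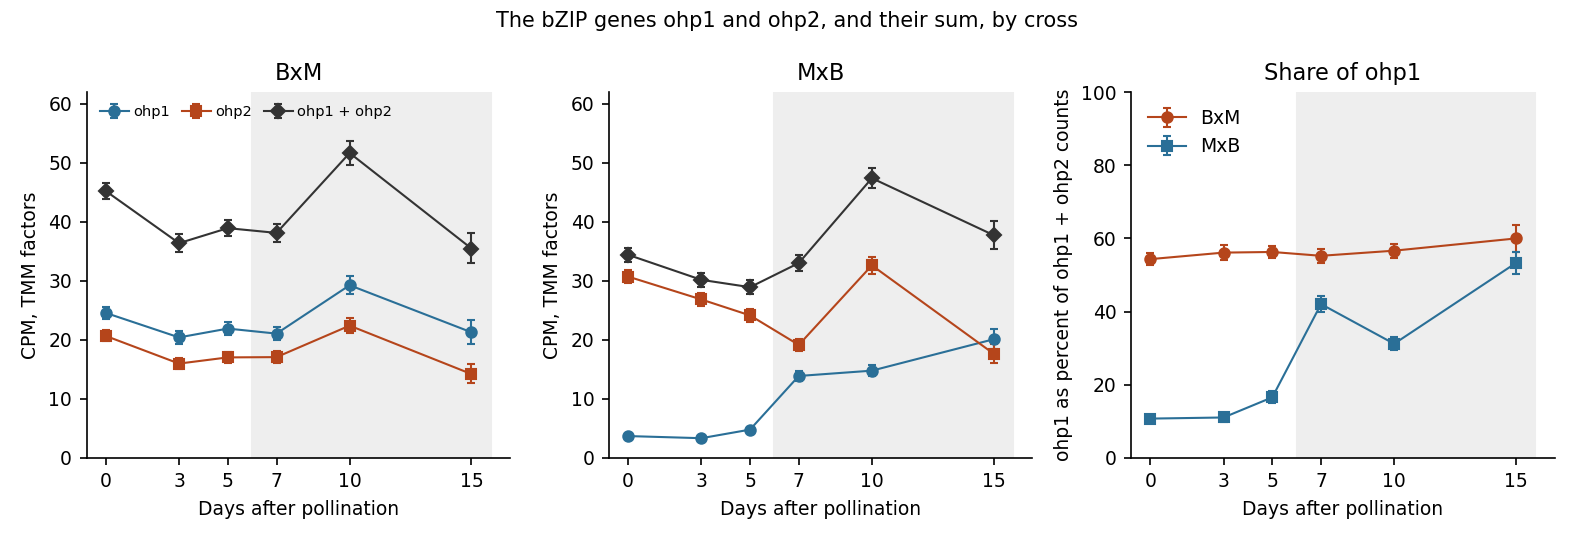
Level of ohp1, ohp2 and their sum (CPM with TMM factors) against days after pollination in BxM (left) and MxB (middle), and ohp1 as percent of the summed counts in both crosses (right), 1 library per point with exact 95% intervals; the grey area marks endosperm. The share of ohp1 in the summed counts is 54.3% to 60.0% in BxM and 10.7% to 16.5% in MxB kernels, and the sums of the crosses lie between 28.9 and 51.7 CPM.

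The name table pairs the pbf1 entry with a second model, GRMZM2G146267, which did not share the course of GRMZM2G146283. Its levels at 0, 3, 5, 7, 10 and 15 DAP were 40.8, 10.3, 45.9, 43.5, 34.6 and 31.9 CPM in BxM and 35.0, 29.9, 26.4, 34.0, 33.3 and 54.2 CPM in MxB. It did not pass at any age step. The results for pbf1 concern GRMZM2G146283 alone.

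Among 8 other regulators linked to zein genes or to endosperm identity, 7 rose at 7 over 5 DAP and 0 fell, with a median log2 fold change of 5.17 beside 0.00 over all models, of which 10% passed as higher. The NAC gene nrp1 rose most, by 10.40 (SE 0.964, adjusted p = 0.000353), followed by the PLATZ gene fl3 at 7.21 (SE 1.07, adjusted p = 0.00204). The others that rose were the bHLH gene o11, the aleurone regulators nkd1 and nkd2, the B3-domain gene vp1 and the MADS-box gene mads47 (2.96 to 5.48), and ohp2 had -0.16. At 10 over 7 DAP 1 of the 8 passed, nrp1, at 3.05 (adjusted p = 0.0453), with a median of 0.99 beside -0.05 over all models, of which 2.83% passed as higher. At that step 5 had an unadjusted p under 0.05 as higher, DESeq2 called 2 and the endosperm libraries alone called 3. The nrp1 call was lost without any 1 of the 8 libraries of 3 to 10 DAP and with upper-quartile factors. At 15 over 10 DAP 0 rose by edgeR, at the unadjusted p and by DESeq2, though 1 was called higher in the endosperm libraries alone, and 1 fell, vp1 (-4.95, adjusted p = 0.0158), which did not pass without BxM of 10 or of 15 DAP. Over all models 14% passed as lower at that step, so 1 of 8 is near the background. No gene of the list was called lower at the first 2 of these steps by edgeR or DESeq2, and 0 had an unadjusted p under 0.05 as lower there. The genes nkd1 and vp1 also stand in the aleurone and embryo marker lists.

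The levels of nrp1 were 44.5, 990 and 1685 CPM at 7, 10 and 15 DAP in BxM and 140, 488 and 920 CPM in MxB, so nrp1 too was lower in BxM at 7 DAP and higher at 10 DAP. The fl3 gene was at 8503, 4467 and 11252 CPM in BxM and 5274, 2030 and 7550 CPM in MxB at the same ages. The o11 gene was at 108, 383 and 267 CPM in BxM and 113, 269 and 289 CPM in MxB.

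Of 13 other genes reported in maize as bound or regulated by Opaque2, 5 or 6 rose at each of these steps, beside 10%, 2.83% and 3.73% of all models. The list holds sh2, bt2 and wx1, which also serve as starchy endosperm markers. At 7 over 5 DAP 5 rose and 1 fell (median 0.69), where 14.8% of all models passed as lower. DESeq2 called 2 lower, and 2 had an unadjusted p under 0.05 as lower, rip1 among them at -3.18 (adjusted p = 0.0604). The 5 were the pyruvate phosphate dikinase genes ppdk1 (4.78) and ppdk2 (5.69), the chaperone genes bip1 (1.04) and bip2 (1.52) and sh2 (5.77), which encodes a subunit of ADP-glucose pyrophosphorylase, and the sucrose synthase gene sus1 fell by 2.09. At 10 over 7 DAP 6 rose and 0 fell (median 2.57). They were rip1, a ribosome-inactivating protein gene (7.22, SE 1.27, adjusted p = 0.0220), bt2, the other ADP-glucose pyrophosphorylase subunit (6.34), the starch synthase gene wx1 (6.17), sh2 (4.59), sus1 (3.41) and fl1 (2.47), which encodes a protein of the zein body membrane. Of the genes that did not rise, 1 had an unadjusted p under 0.05 as lower, and DESeq2 called 1 lower. Of all 46342 models, DESeq2 called 2245 lower at that step.

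At 15 over 10 DAP 5 of the 13 rose and 1 fell (median 1.52 beside -0.37 over all models, of which 14% passed as lower). Those that rose were wx1 (5.27), rip1 (4.58), bt2 (3.58), fl1 (3.42) and o10 (3.17), a gene of the zein bodies, and sus1 fell by 4.99. The lysine degradation gene lkrsdh1 had 1.44 at 10 over 7 DAP (adjusted p = 0.312) and 0.41 at 15 over 10 DAP (adjusted p = 0.747). The count at 10 over 7 DAP was 2 without BxM of 7 DAP and 3 without MxB of 7 DAP or either library of 10 DAP. The count at 15 over 10 DAP was 3 without BxM of 10 DAP and 2 without MxB of 10 DAP or BxM of 15 DAP, and the count at 7 over 5 DAP was 3 without MxB of 5 DAP. The rip1 gene had 1.34 CPM (BxM) and 23.9 CPM (MxB) at 5 DAP, 0.485 and 1.93 CPM at 7 DAP, 157 and 130 CPM at 10 DAP and 3828 and 2923 CPM at 15 DAP.

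Zein models were called higher at each of the 3 steps. Of 29 zein models tested, 4 rose at 7 over 5 DAP and 0 fell (median 1.56): gz27, the beta-zein gene bz15 (4.72), the delta-zein gene dzs18 (7.29) and the alpha-zein model z1B_9 (3.25). Over all models 10% passed as higher at that step, so 4 of 29 is near the background. At 10 over 7 DAP 5 rose and 0 fell, with a median of 5.84 and 28 of 29 values above 0, where 2.83% of all models passed as higher. They were gz27, bz15 (6.36), dzs18 (5.70), z1B_9 (5.85) and z1B_7 (7.62). At this step 26 models had an unadjusted p under 0.05, and DESeq2 called 19 higher and 0 lower. At 15 over 10 DAP 17 of 21 rose and 0 fell, with a median of 6.06, where 3.73% of all models passed as higher. At that step 21 had an unadjusted p under 0.05 and DESeq2 called 16 higher, so the order of the last 2 steps by number of calls depends on the test. The other 8 zein models, gz27 and gz16 among them, are listed at 0 at 15 DAP and were left out, and with them kept in 15 were called higher and 8 lower. Of the models tested, none of the list had an unadjusted p under 0.05 as lower at these 3 steps. Counts of calls leaned on single libraries: the 5 at 10 over 7 DAP became 1 without BxM of 7 DAP, 2 without MxB of 7 DAP, 3 without either library of 10 DAP and 9 without either library of 0 DAP. The 17 at 15 over 10 DAP became 5 and 4 without BxM or MxB of 10 DAP, and 3 and 6 without BxM or MxB of 15 DAP. The 4 at 7 over 5 DAP became 2 without MxB of 7 DAP.

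**Figure D5:**
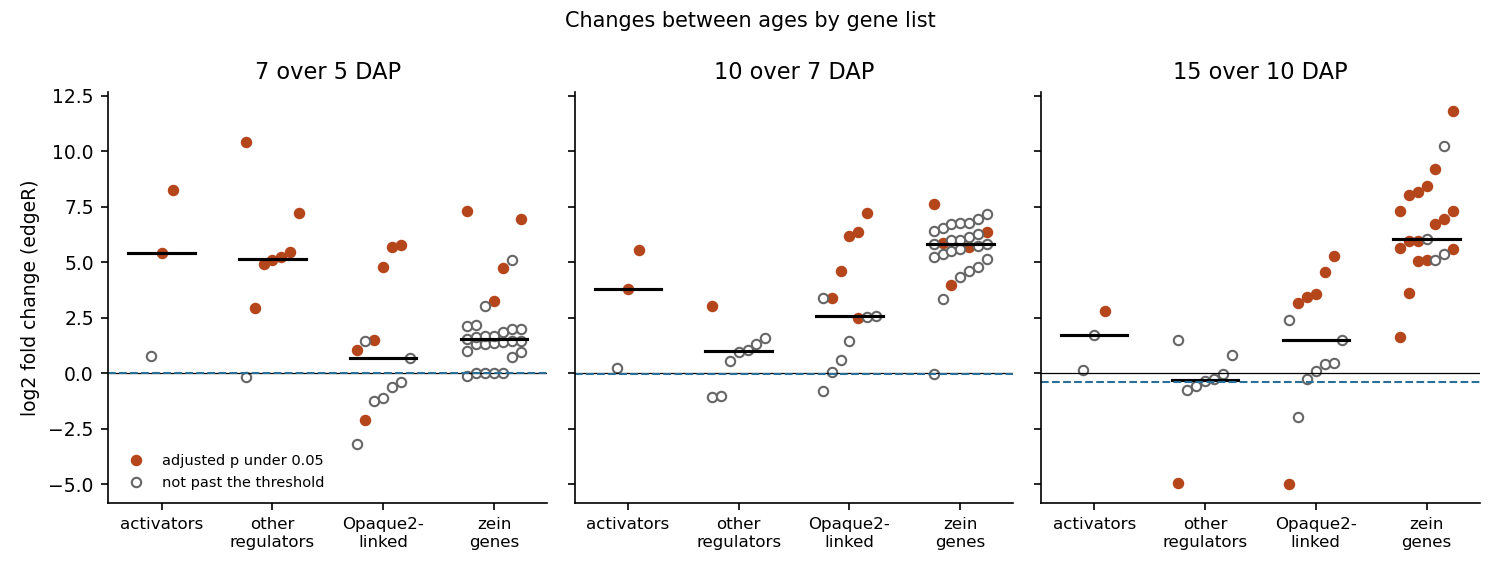
Log2 fold change (edgeR) of each measured model of 4 lists at 7 over 5, 10 over 7 and 15 over 10 DAP; filled points passed an adjusted p of 0.05, the black bar is the median of the list and the dashed line that of all models. The median of the zein list is 1.56, 5.84 and 6.06 at the 3 steps, and that of the other regulators 5.17, 0.99 and -0.30.

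The courses most like each activator were read from Pearson's r of log2(CPM + 1) over the 12 libraries among 27634 models with a mean count of at least 100. The 21 models listed at 0 at 15 DAP, gz27 and gz16 among them, were not ranked. The libraries share ages and crosses, so r is a description. For o2 the 5 highest were AF546188.1_FG001 (0.996), bz15 (0.995), GRMZM2G071433 (0.995), GRMZM2G141810, listed under the symbol TAR3 (0.994), and AF546188.1_FG002 (0.994). In the same order pbf1 was at place 24 (0.982) and fl2 at place 189 (0.955). For pbf1 they were GRMZM2G037327 (0.996), GRMZM2G019819, listed as PP2C8 (0.995), bt1, which encodes an amyloplast transporter of ADP-glucose (0.995), sh2 (0.995) and GRMZM2G446220 (0.993). With a pseudocount of 0.1 CPM 3 of the 5 stayed for each gene, and by Spearman's rho 0 stayed for o2 and 1 for pbf1.

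The models most like ohp1 shared its contrast between the crosses in kernels, and followed its course over age within MxB more closely than within BxM. Both traits come with the choice by r over the 12 libraries and are not separate results. The ohp1 gene was at 3.33 to 4.78 CPM in MxB kernels and at 13.9 to 29.3 CPM in all other libraries. The 5 models were GRMZM2G057491 (0.986), GRMZM2G348453 (0.984), GRMZM2G154278 (0.983), GRMZM2G037111 (0.976) and GRMZM2G175549 (0.973). Within BxM alone their r with ohp1 was -0.27 to 0.69, and within MxB alone 0.979 to 0.993. In kernels all 5 were at 5.96 CPM or more in BxM and at 1.95 CPM or less in MxB. For example, GRMZM2G037111 had 57.4, 118 and 49.0 CPM at 0, 3 and 5 DAP in BxM and 0.101, 0.0614 and 1.60 CPM in MxB. The ohp2 gene had r = -0.64 with ohp1 over the 12 libraries, 0.887 within BxM and -0.515 within MxB.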

How the data were processed

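For each library the authors deposited read counts per gene model and a normalised signal, which per the deposited note was made with edgeR's default factors and scaled to a common total (RPM). In each library this signal equalled the count times 1 factor, and it served only as an alternative scale. Bowtie and bedtools are named in the submitters' processing notes, but a version, genome build or annotation is not given in the sources used here. Gene symbols were looked up in the annotation of Zm-B73-REFERENCE-NAM-5.0, and none of its coordinates were used.

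The deposited counts entered the quasi-likelihood test of edgeR 4.0.16 (R 4.3.3), after filterByExpr and with TMM factors. P-values were adjusted by Benjamini-Hochberg over all models tested, with a threshold of 0.05. Changes between ages were fitted on 12 libraries with age and cross as terms (5 residual degrees of freedom), and crosses on the 12 libraries or the 6 of endosperm (2 residual degrees of freedom) with age as a term. With 1 library per cross and age, p-values reflect how far the 2 crosses differ in their course and say nothing of plant-to-plant spread. SE was derived from the F statistic. The 21 models listed at 0 at 15 DAP were those with zeros in both crosses there and a 10 DAP mean of 5000 counts or more, or with 0 in 1 cross and 100000 or more in the other. They were left out of fits that concern 15 DAP and of the ranking by r.

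The members, lists and rules were chosen with earlier results of these data known. Lists were filled by symbol, and symbols that the table lacks were left out. Named genes are the members, gz27, fl2, the listed genes and the 5 models most like each member. The fit with separate cross terms for kernel and endosperm (4 residual degrees of freedom) and the sum of ohp1 and ohp2 were added after the data were seen. The fits were tested on simulated counts. Alternatives were DESeq2 1.42.0, upper-quartile factors, the authors' scaling, no filter, age alone as the term, endosperm libraries alone, no 15 DAP libraries, models listed at 0 kept in or left out, and each library left out. A planned comparison of promoters and proteins was not run, as sequences were not used here.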

Additional observations from a re-analysis of the deposited data

Results flagged for a closer look

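The change of ohp1 had opposite signs in the 2 crosses at 2 age steps, only the later of them with levels apart beyond counting error in both crosses. From 5 to 7 DAP its log2 fold change was -0.057 in BxM, where the intervals of 20.0 to 22.2 CPM at 7 DAP and 20.9 to 23.0 CPM at 5 DAP overlapped, and 1.54 in MxB, and from 10 to 15 DAP it was -0.46 in BxM and 0.44 in MxB. With 1 library per cross and age, the difference between the crosses was not tested at either step. The difference of ohp1 between BxM and MxB was larger in kernels than in endosperm by 1.96 on the log2 scale (edgeR, adjusted p = 0.0223), and with ohp1 and ohp2 summed this was 0.28 (adjusted p = 0.765). Tissue and parental make-up change together in that comparison.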

How the results depend on the processing

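No paired analysis was possible because each combination of cross and age has 1 library and the labels number none, other than matching the crosses by age, which the fits with age as a term do. Of 30 results on the activators and their timing, 155 of 172 values under other settings kept direction and side of the threshold (2 lost the call, 4 gained it, 3 turned direction and 8 values without a test moved), as did 182 of 222 without 1 library (17 lost the call, 3 gained it and 20 turned direction). The changes of o2 and pbf1 at 7 over 5 DAP and 15 over 7 DAP, and that of ohp1 between the crosses in kernels, kept both without any single library. For differences between the crosses, leaving out BxM or MxB of an age gave nearly the same value, as the age term takes up the library left. The 222 values hold both members of each such pair, so they are not separate checks. With DESeq2, o2 between the crosses over 12 libraries was -0.12 (adjusted p = 0.941) and ohp1 passed at 1.54 (0.00185). The change of pbf1 at 15 over 10 DAP passed with DESeq2 (2.00), upper-quartile factors (2.05) and endosperm libraries alone (1.93). That of ohp1 was -0.091 with age alone as the term and -0.43 summed with ohp2; summed, ohp1 had 0.36 in kernels and 0.28 for kernel minus endosperm. At 1% of the 10 DAP level, the first age was 7 DAP for o2 in MxB, 7 DAP for pbf1 and gz27 in BxM, 0 DAP for fl2 in BxM and 3 DAP for fl2 in MxB. At 50% it was 10 DAP for pbf1 and gz27 in MxB and 7 DAP for ohp1 in MxB. The cause of these shifts was not tested.

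Without 1 library at a time, values ranged as follows. For o2 they were 4.60 to 6.78 at 10 over 7 DAP, 2.09 to 3.95 at 15 over 10 DAP, -0.51 to 0.59 between the crosses over 12 libraries and -0.40 to 1.03 in endosperm. For pbf1 they were 3.13 to 4.59, 1.24 to 2.35, -0.69 to 0.030 and -0.72 to 0.23. For ohp1 they were -0.24 to 0.90 at 10 over 7 DAP, -0.95 to 0.80 at 15 over 10 DAP, -0.74 to 1.06 at 15 over 7 DAP and 1.72 to 2.17 for kernel minus endosperm. For fl2 at 7 over 5 DAP they were -1.56 to 11.16.

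Counts of all models called moved more. At 10 over 7 DAP 1311 were higher and 446 lower, against 3646 and 2245 with DESeq2, 2322 and 1062 in endosperm alone and 845 and 295 with age alone. At 3 over 0 DAP 246 and 8 were called, against 2823 and 819 with DESeq2, and at 5 over 3 DAP 6 and 0, against 931 and 677. At 15 over 10 DAP 1729 were higher, against 3879 in endosperm alone. Between the crosses 4 and 4 were called over 12 libraries, against 3520 and 3843 with DESeq2 and 95 and 77 without a filter, and in endosperm 15 and 4, against 673 and 406, and 547 and 377. For kernel minus endosperm 938 and 843 were called, against 2020 and 2135 with DESeq2. The all-model median shifted with upper-quartile factors by over 0.1 at 7 over 5 DAP (0.20 in place of 0.00) and 15 over 10 DAP (-0.08 in place of -0.37). In kernels o2 and pbf1 had at most 7 counts, so counting error is large there. Without 1 library at a time, models called higher ranged from 8 to 1613 at 3 over 0 DAP, 0 to 1131 at 5 over 3 DAP, 2078 to 5322 at 7 over 5 DAP, 94 to 1485 at 10 over 7 DAP (lowest without BxM of 7 DAP), 458 to 2417 at 15 over 10 DAP, 1896 to 4918 at 15 over 7 DAP, 1717 to 3239 between the crosses in kernels and 494 to 1040 for kernel minus endosperm, so the background shares move with the libraries too.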

Other observations

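Most zein models held counts in kernel libraries, unpollinated ones among them, in which o2 and pbf1 were at trace. For fl2 these counts were small beside those of late endosperm. It was at 2.82 CPM or less in kernels, against 47465 CPM (BxM) and 18283 CPM (MxB) at 15 DAP. The o2 gene was at 0.0925 CPM or less in kernels, against 834 and 538 CPM at 15 DAP. Where the zein reads of kernel libraries came from was not tested. Of 30 zein models listed, 24 were above 3 counts in 1 or more kernel libraries, and 4 had 0 counts in all 6. In 22 of the 24, chosen for description after the values were seen, BxM of 5 DAP and MxB of 0 DAP lay below the other 4 kernel libraries. The share of all models with this order was not counted. Zein models may share reads, and fl2 had counts identical to those of 1 other model, so the 22 may not be separate observations. The gz27 gene did not share this order of libraries, with 8.72, 11.3 and 2.35 CPM at 0, 3 and 5 DAP in BxM and 12.3, 18.9 and 15.3 CPM in MxB. The z1A1_6 model had 7.40, 9.59 and 0.190 CPM at 0, 3 and 5 DAP in BxM and 0.284, 17.2 and 15.6 CPM in MxB. The gz16 model had 5.35, 6.39 and 0.279 CPM in BxM and 0.344, 3.49 and 3.33 CPM in MxB at these ages. The counts of fl2 were 167, 178 and 0 in BxM and 2, 144 and 136 in MxB, so the same libraries were low for all 3 of these models. The o2 counts in these 6 libraries were at most 7 and those of pbf1 at most 5.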
